A study of Homo sapiens with 7 samples.

Results

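Cytokine, chemokine, NF-kappaB and interferon genes were described here by the accessible chromatin regions assigned to them that changed on PHF19 knockdown. A region was a member where the deposited gene symbol began with a prefix of the interleukins, the CXC and CC chemokines and their receptors, the TNF, interferon, IRF, STAT, TLR, SOCS and TRAF families or NFKB, or was REL, RELA or RELB. This rule took 76 of the 8815 deposited regions, nearest to 49 of 5952 genes, with 74 regions increased and 2 decreased. It uses letters only, so it also took genes that carry a family prefix without belonging to the named family. Counted apart as such were 5 protein-coding genes (IRF2BP2, TNFAIP1, TNFAIP8, TNFAIP8L1 and TNFAIP8L3) and the antisense transcript TLR8-AS1. TRAF3IP3, a TRAF3-interacting protein and not itself a TRAF, was counted with the TRAF group.

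The libraries were ATAC-seq, in which a transposase cuts adapters into open chromatin, from Kasumi-1, an established acute myeloid leukaemia line carrying the RUNX1-RUNX1T1 fusion. One group of 4 libraries came from cells given scrambled control shRNA, labelled WT, and the other of 3 from cells given a lentiviral shRNA against PHF19, a Polycomb-like subunit of the H3K27 methyltransferase complex PRC2. Both groups received puromycin (2 µg/ml) from 48 hours after the shRNA for at least 24 hours, and 10000 cells went into each library. The labels mention neither separate cultures nor more than a single PHF19 shRNA, so the authors' statistics rest on library-to-library spread, part or all of which may be technical.

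Each region carries the authors' mean normalised read count per group, a log2 fold change (knockdown over control), and a false discovery rate (FDR), the adjusted p-value. These come from the authors' deposited table throughout, with no SD, n or value per library, so the depth of each library is unknown here and the samples could not be shown one by one. The deposited fold is smaller in size than the ratio of the group means gives in all 8815 regions, and the means were floored at 1 read. Gene names are the deposited nearest genes, a promoter lies within 3 kb of a transcription start site (TSS), and a negative distance is upstream. In bulk libraries, a change in the share of cells with an open site and a change in every cell cannot be told apart. Neither PHF19 levels nor lineage markers could be checked, since no transcript or protein was analysed here.

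NF-kappaB is a family of dimers (NFKB1, NFKB2, REL, RELA, RELB) held in the cytoplasm by inhibitors such as NFKBIA and released by signals from TNF, interleukin-1 and Toll-like receptors that pass through TRAF adaptors. Interferons and many interleukins signal mainly through JAK kinases and STAT factors, and SOCS proteins, some of them STAT targets, can switch that signal off. In myeloid cells these pathways drive chemokine release, survival and differentiation, and the genes they switch on include some that encode their own inhibitors.

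The promoters shown next belong to members with an increased promoter region. They hold short matches to the binding letters of factors that the family encodes or, in CXCL8, of AP-1, which the rule does not take. The letters searched on both strands of the 250 bases before each RefSeq start were GGGNNNTTCC for NF-kappaB (kappaB), GAAANNGAAA for the interferon-stimulated response element (ISRE), TTCNNNGAA for STAT dimers (GAS) and TGANTCA for AP-1. The sequences are from RefSeq (GRCh38.p14), run 5′ to 3′ on the gene's strand, and have the matched letters in capitals. The first 3 are kappaB matches, SOCS1 is an ISRE match and CXCL8 an AP-1 match. The kappaB letters require GGG, so the near match tggaatttcc in the CXCL8 sequence was not counted. A promoter without the letters is therefore not shown to lack a kappaB site. NFKBIA (chr14:35404750-35404999, minus strand), CXCL3 (chr4:74038690-74038939, minus) and CXCL8 (chr4:73740319-73740568, plus) are shown as the whole 250 bases. NFKB1 (chr4:102501290-102501339, plus) and SOCS1 (chr16:11256288-11256337, minus) are shown as the match with 20 bases on either side.
NFKBIA: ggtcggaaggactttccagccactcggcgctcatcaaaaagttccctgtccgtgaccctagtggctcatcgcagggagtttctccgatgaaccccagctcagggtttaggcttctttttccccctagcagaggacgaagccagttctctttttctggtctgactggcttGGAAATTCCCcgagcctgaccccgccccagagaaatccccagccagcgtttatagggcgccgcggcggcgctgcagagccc
CXCL3: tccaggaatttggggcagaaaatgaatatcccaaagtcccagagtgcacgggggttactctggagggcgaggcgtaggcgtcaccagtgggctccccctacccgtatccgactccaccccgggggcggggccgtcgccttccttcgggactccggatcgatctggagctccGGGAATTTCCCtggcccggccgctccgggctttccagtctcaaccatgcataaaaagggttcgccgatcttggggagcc
NFKB1: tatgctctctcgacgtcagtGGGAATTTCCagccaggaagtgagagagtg
SOCS1: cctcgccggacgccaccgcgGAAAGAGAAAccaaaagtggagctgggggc
CXCL8: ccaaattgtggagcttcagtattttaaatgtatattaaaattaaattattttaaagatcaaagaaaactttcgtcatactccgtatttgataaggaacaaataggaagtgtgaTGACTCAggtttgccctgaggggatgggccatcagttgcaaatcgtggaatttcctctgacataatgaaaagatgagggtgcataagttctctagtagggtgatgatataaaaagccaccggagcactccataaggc

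A match is a description of letters, not a bound site. The builds differ, so a RefSeq start was paired with the deposited one where its distance to the far end of the gene came within 100 bases of the deposited transcript length, as it did for all 5 promoters shown, a check added after seeing the data. The kappaB letters began 81 bases before the start of NFKBIA, 79 before CXCL3 and 49 before NFKB1. In CXCL3 they matched both strands in overlapping positions, and the AP-1 letters are a palindrome. A match need not lie inside the region that changed. The SOCS1 match began 113 bases before the start, while the listed region began 33 bp inside the gene. The CCL27 match counted below began 65 bases before the start, while the listed promoter region lay 2.32 kb upstream. Both matches thus fell outside the listed region. Of the 24 member genes with an increased promoter region, 21 were in the promoter table, and 6 of these (28.6%) held the kappaB letters before at least 1 of their RefSeq starts. In NFKBIA, CXCL3 and NFKB1 that start was the paired one. In REL and TNFAIP1 no start could be paired, and in NFKBIZ the letters lay before a different start from the paired one, which had none. Among the 13 genes with a paired start the kappaB letters were thus in 3 (23.1%). Over any start, as in the 6 of 21, the share was 16.0% among the other family genes in the table (30 of 187) and 6.87% among all 27305 genes. The ISRE letters were in 2 of the 21 (9.52%, SOCS1 and IL18BP), in 10.2% of the other family genes and in 3.71% of all genes. For AP-1 the shares were 9.52% (CXCL8 and CCL27), 14.97% and 8.06%, and for GAS 4.76% (IL18BP), 17.1% and 8.09%. The IL18BP matches too lay before a start that could not be paired, and all these shares are given with no test.

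All but 2 of the family's listed regions, those of CXCL12 and SOCS3, were more accessible in the knockdown. The background is 16.4% of 52675 tested regions increased and 0.380% decreased. Increased regions were 97.4% of the family's listed regions and 97.7% of all listed regions. The median log2 fold of the 74 increased regions was 1.01 (interquartile range 0.88 to 1.13), against 0.97 (0.84 to 1.12) for all 8615 increased regions. Folds ran from 0.64 at the REL promoter to 1.69 in an IL1RAP intron, and 34 regions (45.9%) had an FDR of at most 0.01, the same share as in the whole list (45.9%). Promoter regions were the more deeply covered, with a median of 29.9 mean reads and a median log2 fold of 0.94, and the other 45 regions had 9.96 reads and 1.03. All increased regions showed the same split, at 33.8 reads and 0.89 against 10.3 reads and 1.02.

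A smaller share of the family's genes was listed than of all protein-coding genes. Of 270 protein-coding genes whose RefSeq symbol meets the rule, 46 had an increased region, or 17.04%, where the background over all protein-coding genes is 25.2%. Increased promoters were found at 24 (8.89%), against a background of 17.5%, and decreased regions at 2, against 0.818% of all genes. Promoters held 29 of the 74 increased regions (39.2%, exact Clopper-Pearson 95% interval 28.0 to 51.2%, counting error only) and 50.1% of all increased regions. Intergenic regions made up 26 (35.1%, against 26.8%) and introns 15 (20.3%, against 20.5%). These shares are descriptions with no test, and a gene with no listed region is not shown to be unchanged. The promoter interval takes regions as independent, though some share a gene, as 7 do at IL1RAP, so it may be too narrow.

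**Figure D1:**
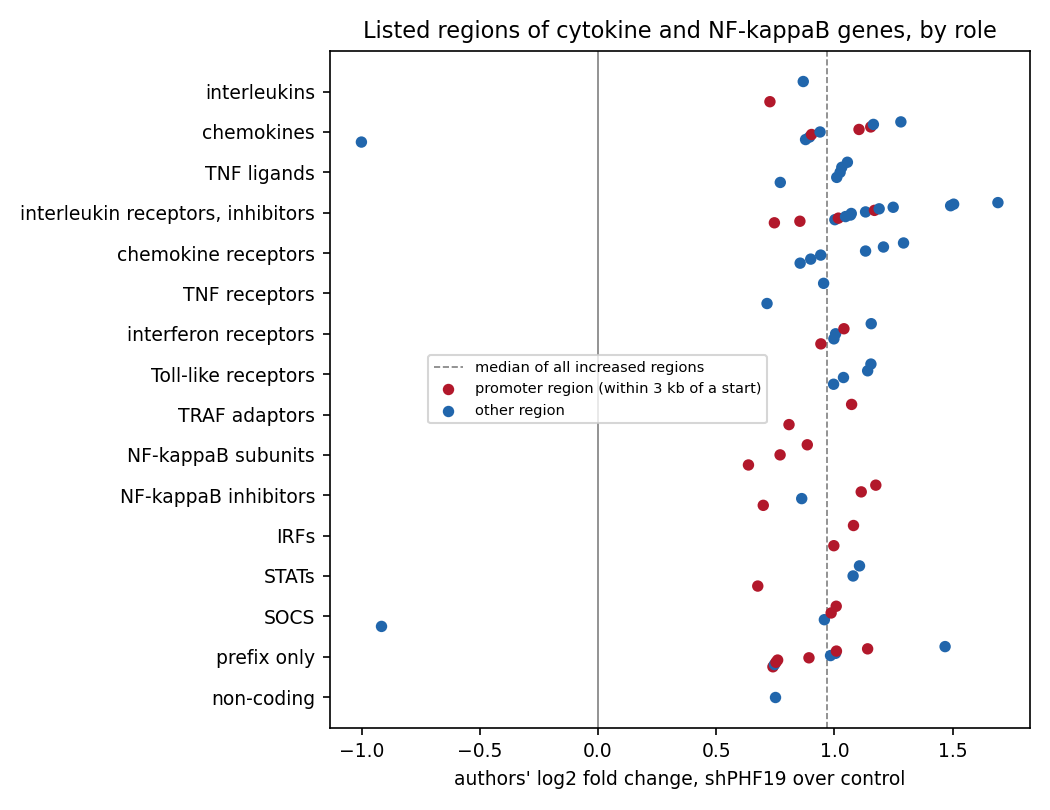
Each point is 1 of the 76 listed regions, placed on the x axis by the authors' log2 fold change (shPHF19 over control) and in a row by the role of its gene, with a small vertical spread for legibility only; red marks promoters and blue other regions. The 2 points below 0 are CXCL12 and SOCS3, and the dashed line is the median of all increased regions, 0.97.

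The share of genes with an increased region ran from 0 of 21 interferon genes to 3 of 5 NF-kappaB subunits. Secreted or membrane ligands (interleukins, chemokines, interferons and TNF ligands) had 10 of 115 (8.70%), receptors 17 of 95 (17.9%, counting the soluble inhibitors IL18BP, IL1RN and IL36RN with the interleukin receptors), and intracellular signalling proteins (NF-kappaB subunits and inhibitors, TRAF, IRF, STAT and SOCS proteins) 14 of 43 (32.6%). At promoters the shares were 3.48%, 5.26% and 25.6%. These 3 groups were formed after the counts by role were seen, and their differences carry no test. For single roles the background over all protein-coding genes is 25.2%. Shares were 25% for chemokine receptors, 22.2% for the TRAF group, 20% for Toll-like receptors, 14.3% for chemokines and 11.1% for IRFs. Interferon receptors had 33.3%, STATs 28.6% and SOCS genes 42.9%, on few genes each. None of the interferon ligand genes was listed in either direction. Most of them lie on chromosome 9, so the 21 need not be separate loci.

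**Figure D2:**
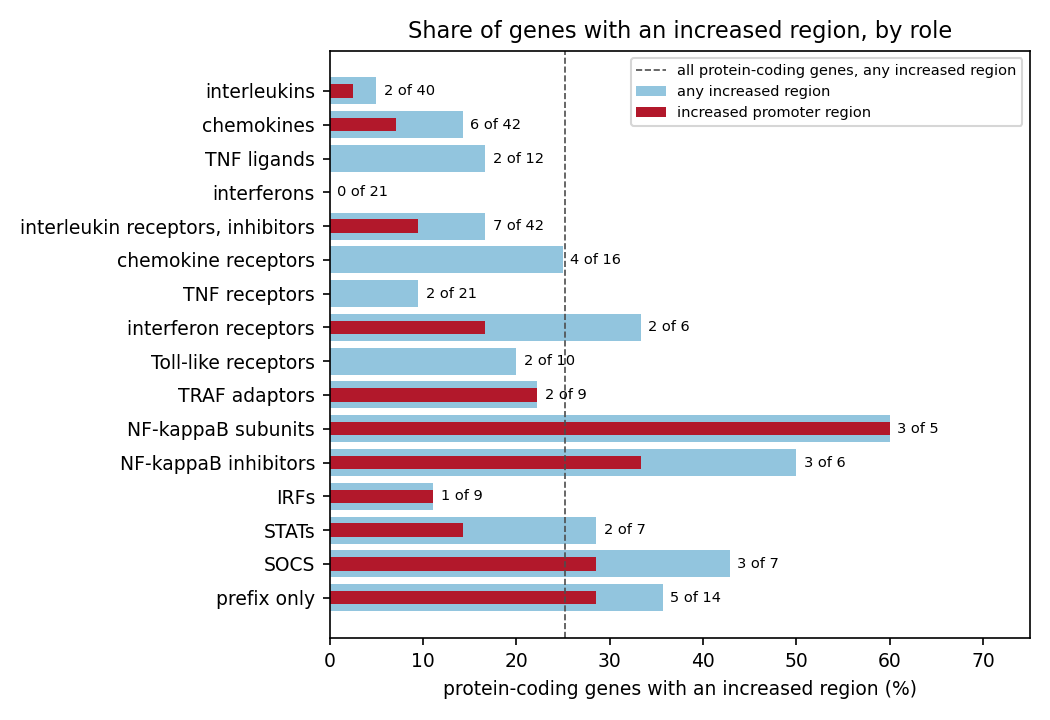
Bars give the percentage of each role's protein-coding genes with any increased region (blue) and with an increased promoter region (red), with the number of genes at the end of each bar. The dashed line is the 25.2% of all protein-coding genes; NF-kappaB subunits (3 of 5) and inhibitors (3 of 6) lie above it, interleukins (2 of 40) and interferons (0 of 21) below.

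The NF-kappaB genes themselves had increased regions at 3 of 5 subunits and at 3 of 6 genes grouped as inhibitors. REL, the subunit c-Rel, had the family's smallest fold, with mean reads of 58.9 in the knockdown and 35.2 in the control (log2 fold 0.64, FDR 0.0403, chromosome 2, 61108494 to 61108894). NFKB1, which encodes p105 and its product p50, had 14.7 and 5.84 reads at its promoter (0.89, FDR 0.0486). RELB, a partner in the alternative pathway, had 23.2 and 11.5 (0.77, FDR 0.0484). All 3 lay at promoters and close to the authors' FDR limit of 0.05, and RELA, the p65 subunit, had no listed region, nor had NFKB2.

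Among the genes grouped as inhibitors, NFKBIA and NFKBIZ each had a promoter region with a larger fold than any of the listed subunits. NFKBIZ is in this group by its name, and its product is not a cytoplasmic inhibitor like that of NFKBIA. The promoter of NFKBIZ, a nuclear regulator of secondary response genes, had 89.5 reads on knockdown and 37.1 in the control (log2 fold 1.11, FDR 0.000129, chromosome 3, 101568043 to 101568443). NFKBIA, the main cytoplasmic inhibitor, had 46.6 and 17.3 reads over its start (1.18, FDR 0.000332, chromosome 14, 35873781 to 35874181). A further NFKBIA region 538 bp downstream of the start had 34.1 and 19.03 reads (0.70, FDR 0.0432). These values are the same contrast in 2 neighbouring stretches of 1 promoter, and they are not independent. For TNFAIP3, the ubiquitin-editing inhibitor A20, the listed region was not at the promoter but 20.1 kb upstream, in intron 3 of the neighbouring gene WAKMAR2 (29.99 and 14 reads, 0.86, FDR 0.0236). NFKBIB, NFKBID and NFKBIE had none.

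Of the TRAF group, which links receptors to NF-kappaB and MAP kinases, 2 of 9 genes were listed, both at promoters. The group takes in TRAF3IP2 and TRAF3IP3 beside the TRAF proteins, of which TRAF6 alone was listed. TRAF6, the ubiquitin ligase downstream of interleukin-1 and Toll-like receptors, had 74.3 reads on knockdown and 32.1 in the control (log2 fold 1.07, FDR 0.000109, chromosome 11, 36531650 to 36532050). TRAF3IP3, a TRAF3-interacting protein, had 35.2 and 17.3 (0.81, FDR 0.0235). Toll-like receptors, the sensors of microbial products, had 2 of 10 genes listed and no promoter. The TLR2 region lay 32.3 kb upstream (19.1 and 6.93 reads, 1.04, FDR 0.0118). TLR4 had 3 regions, at 59.1 kb upstream (0.996) and at 818 and 825 kb downstream of its start (1.15 and 1.14). The last 2 lie 805 and 812 kb past the end of the gene, so TLR4 is the nearest gene there only by the annotation.

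Members of the JAK-STAT arm with listed regions included STAT2, SOCS1, SOCS2, SOCS6 and, in the other direction, SOCS3. The promoter of STAT2, whose product is part of the interferon-activated complex ISGF3, had the most reads among the family's listed regions. It had 129 reads on knockdown and 78.1 in the control (log2 fold 0.68, FDR 0.00288, chromosome 12, 56753870 to 56754270). STAT3, STAT5A and STAT5B, which carry much of the signal of myeloid growth factor receptors, had none, as did STAT4 and STAT6.

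SOCS proteins, which include feedback inhibitors of JAK kinases, had increased regions at 3 of 7 genes and a decreased one at another. SOCS1 had 41.4 reads on knockdown and 17.8 in the control 33 bp from its start (log2 fold 1.01, FDR 0.00269, chromosome 16, 11349606 to 11350006). SOCS2 had 53.4 and 23.6 at its promoter (0.99, FDR 0.00261). SOCS6 had 15.3 and 5.96 reads 3.20 kb upstream (0.96, FDR 0.0269). The SOCS3 region went the other way, with 5.32 reads on knockdown and 14.1 in the control (−0.92, FDR 0.0459, chromosome 17, 76339174 to 76339574). It lies 16.6 kb from the SOCS3 start and 13.3 kb past the end of the gene, and the SOCS3 promoter was not listed.

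Among the interferon regulatory factors, 1 of 9 was listed. IRF2, which binds the same elements as IRF1 and was described as its antagonist, had 2 promoter regions, with 45.4 reads on knockdown and 19.6 in the control over the start (log2 fold 0.998, FDR 0.00266) and 30.4 and 11.8 reads 1.23 kb inside the gene (1.08, FDR 0.00323). IRF1, the interferon-induced activator, and IRF8, the monocyte and dendritic cell factor, had no listed region. Interferon receptors were listed at 2 of 6 genes. IFNAR1, a chain of the type I interferon receptor, had 4 increased regions. Its promoter had 58.1 reads on knockdown and 25.6 in the control (1.04, FDR 0.000506, chromosome 21, 34697022 to 34697422). The others lay 229 bp inside the gene (0.94), 23.1 kb upstream (0.998) and 2.31 kb past its end (1.16, FDR 0.00347). IFNLR1, a type III interferon receptor chain, had 11.1 and 3.33 reads 3.61 kb upstream (1.005, FDR 0.0301), and IFNGR1 had none.

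**Figure D3:**
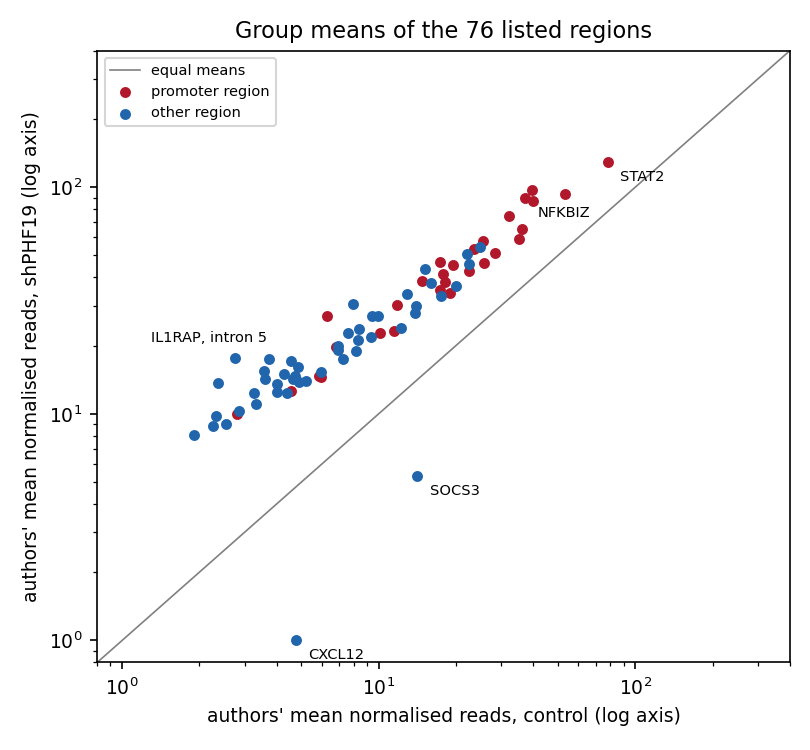
Each point is 1 listed region of the family, with the authors' mean normalised reads in the control on the x axis and in shPHF19 on the y axis, both on log axes, and the line marks equal means. All but CXCL12 and SOCS3 lie above the line; STAT2 is the most accessible, with 129 and 78.1 reads, and CXCL12 sits at the floor of 1 read in the knockdown.

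Interleukin receptors held the family's largest folds, and most of these were at 1 gene. IL1RAP, the co-receptor that interleukin-1 and interleukin-33 receptors share and a surface antigen reported on leukaemic stem cells, had 7 increased regions across 114 kb, the most of any member. The promoter had 97.1 reads on knockdown and 39.7 in the control (log2 fold 1.17, FDR 4.39e-06, chromosome 3, 190231562 to 190231962), the smallest FDR in the family. Of its 5 intronic regions, 3 had larger folds than the promoter, on fewer reads. In intron 5, 105 kb from the start, the mean was 17.6 reads on knockdown and 2.74 in the control (1.69, FDR 0.000294). A neighbour in the same intron had 30.4 and 7.94 (1.504, FDR 8.07e-05), and 1 of 2 regions of intron 3 had 13.6 and 2.38 (1.49, FDR 0.00165). The other intron 3 region (54.3 and 24.8 reads, 1.002), the intron 1 region (1.13) and a region 9.28 kb upstream (1.19) completed the set. All 7 had an FDR of at most 0.01, and they share libraries and a locus, so they are not 7 independent observations.

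The other interleukin receptor genes had 1 or 2 regions each. IL17RA, the common chain of interleukin-17 receptors, had 43.4 reads on knockdown and 15.2 in the control in exon 4 of 13 (log2 fold 1.25, FDR 0.000213, chromosome 22, 17579358 to 17579758). IL7R, the interleukin-7 receptor of lymphoid cells, had regions 35.8 kb upstream (19.95 and 6.95 reads, 1.07) and in its 3' untranslated region (14.2 and 4.65 reads, 1.07). IL1R1, the signalling receptor of interleukin-1, had 9.80 and 2.32 reads in intron 1 (1.05, FDR 0.0269). IL6ST, or gp130, the shared chain of interleukin-6 type receptors, had a smaller fold on more reads, 65.4 and 36.2 at its promoter (0.75, FDR 0.0142). Promoter regions were also listed for IL21R (1.02) and the interleukin-18 decoy IL18BP (0.85, FDR 0.0499). IL3RA, the leukaemia antigen CD123, had no listed region.

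**Figure D4:**
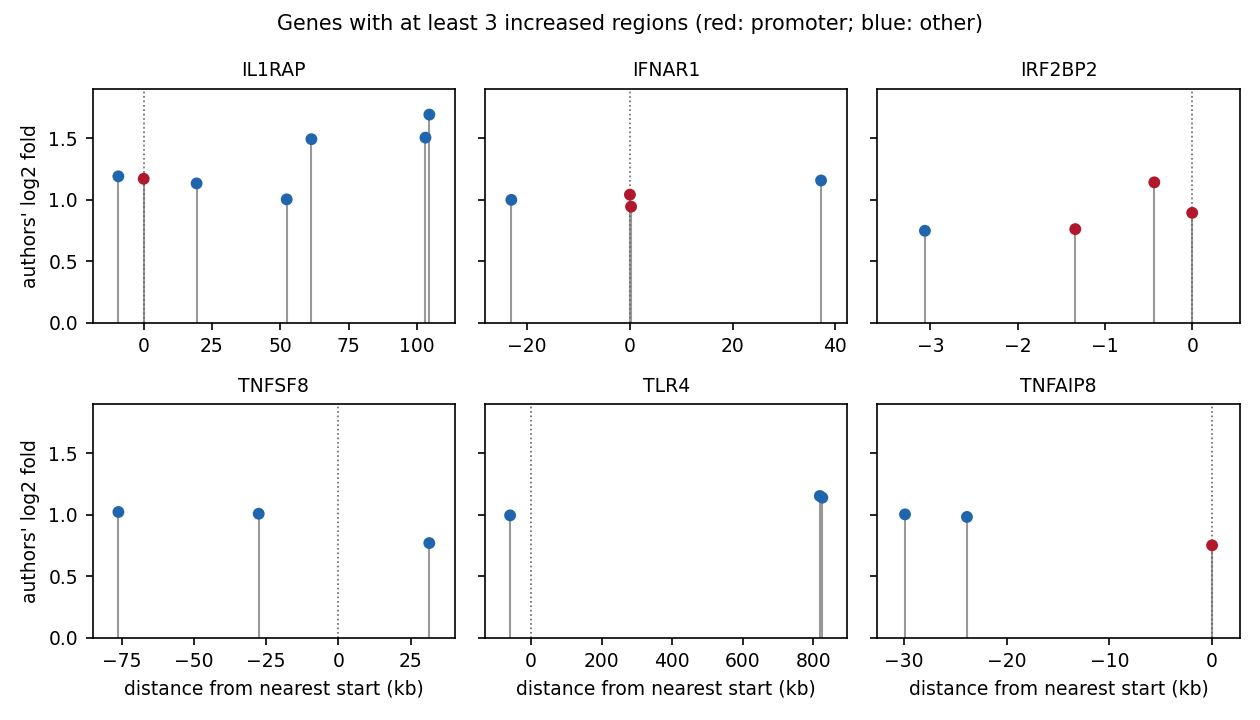
For the 6 genes with at least 3 increased regions, the x axis gives the deposited distance in kb from the nearest annotated start, which can be that of another transcript of the gene, and the y axis the authors' log2 fold; red points are promoters. IL1RAP has 7 regions from 9.28 kb upstream to 105 kb inside the gene, and 2 of the 3 TLR4 regions lie 818 and 825 kb away.

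Interleukin genes themselves were listed at only 2 of 40. IL12A, the p35 subunit of interleukin-12, had 46.1 reads on knockdown and 25.6 in the control at its promoter (log2 fold 0.73, FDR 0.0220). IL16, a chemoattractant for CD4 cells, had 17.4 and 7.26 in an exon (0.87, FDR 0.0404). Of 12 TNF ligand genes, TNFSF10 and TNFSF8 were listed, with no promoter region. TNFSF10, the death ligand TRAIL, had 50.6 and 22.2 reads in intron 2 (1.03, FDR 0.000945), and a region 68.8 kb upstream had 13.6 and 4.01 (1.05, FDR 0.0199). TNFSF8, the CD30 ligand, had 3 regions, 27.6 and 76.1 kb upstream (1.01 and 1.02) and in intron 4 (0.77). TNF itself had none, and of 21 TNF receptor genes only TNFRSF21 (DR6, 0.71, intronic) and TNFRSF11B (osteoprotegerin, 0.95, 6.76 kb upstream) were listed.

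Chemokine genes were listed as increased at 6 of 42 and as decreased at 1. The promoter of CXCL8, the neutrophil attractant interleukin-8 whose sequence is shown above, had 38.5 reads on knockdown and 14.7 in the control (log2 fold 1.15, FDR 0.000811, chromosome 4, 74606122 to 74606522). In the same chromosome 4 cluster of neutrophil chemokines, the CXCL3 promoter had 19.6 and 6.81 reads (1.10, FDR 0.00798, 74904302 to 74904702). A region 2.44 kb past the end of CXCL2 had 22.8 and 7.58 (1.16, FDR 0.00331), and another 17.4 kb past CXCL3 had 13.97 and 5.20 (0.94). The cluster thus had 4 increased regions, while CXCL1, CXCL5 and CXCL6 were not listed.

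CCL20, the ligand of CCR6, had 17.1 reads on knockdown and 4.57 in the control just past its end (log2 fold 1.28, FDR 0.00332), the largest fold of the chemokines. CCL27 (0.90 and 0.89) and CCL28 (0.88), both ligands of CCR10, had regions as well. CXCL12, the stromal ligand that holds haematopoietic cells in the marrow through CXCR4, had the decreased region, 41.8 kb upstream, with the knockdown mean at the floor of 1 read and 4.75 reads in the control (−1.001, FDR 0.0116, chromosome 10, 44922352 to 44922752). It rests on the lowest mean of any listed region of the family, 2.71 reads over all libraries.

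Chemokine receptors were listed at 4 of 16 genes (25%, against 25.2% of all protein-coding genes). None of their regions lay at a promoter or exceeded 12.8 mean reads over all libraries. CXCR4, the CXCL12 receptor, had regions 120 and 264 kb upstream, with 12.4 reads on knockdown and 3.27 in the control (log2 fold 1.13, FDR 0.0138) and 15.5 and 3.59 (1.29, FDR 0.00443). CCR6 had 2 neighbouring intronic regions (1.21, FDR 0.00807, and 0.90, FDR 0.0477). CCR8, 17.1 kb past its end (0.86, FDR 0.0407), and the interleukin-8 receptor CXCR1, 19.3 kb upstream (0.94, FDR 0.0467), had 1 each.

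The genes counted apart as sharing only a prefix had 10 increased regions at 5 of 14 genes. IRF2BP2, a corepressor named for binding IRF2, had 4 regions within 3.1 kb of a start, the largest with 26.9 reads on knockdown and 6.30 in the control (log2 fold 1.14, FDR 0.0154). TNFAIP8L3 had 17.4 and 3.74 reads 21.5 kb upstream (1.47, FDR 0.00107), the largest fold outside IL1RAP. TNFAIP8L1 had 87.2 and 40.1 at its promoter (1.01, FDR 0.000219). TNFAIP8 had 3 regions (0.753 to 1.005), TNFAIP1 a promoter region (0.74) and TLR8-AS1 a region 12.8 kb upstream (0.75, FDR 0.0477).

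Genes of the same pathways that the rule does not take were counted from 4 lists, against the same 25.2% of all protein-coding genes. The lists were written with earlier results of these data known, so their shares may reflect that choice and carry no test. NF-kappaB kinases, adaptors and regulators had an increased region at 17 of 40 genes (42.5%), and none decreased. Of these, 15 (37.5% of the list) had an increased promoter, where 17.5% of all protein-coding genes did. The largest was at the promoter of MAP3K7, the kinase TAK1 that activates the IkappaB kinases, with 77.4 reads on knockdown and 26.8 in the control (log2 fold 1.34, FDR 3.17e-06). TANK, a TRAF-binding adaptor (1.16, 59.1 kb upstream), and TNIP1, an A20 partner (1.11, 5.92 kb upstream), followed. MYD88, IRAK4, TAB3, IKBKG, BCL10 and MALT1, which carry the signal from receptors to the kinases, were among the listed promoters. So were CYLD, OTULIN, TNIP1, TNIP2, BIRC2, BIRC3, FADD and TICAM2, which complete the list's increased promoters. These names were chosen after their values were seen.

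JAK kinases and other JAK-STAT regulators had increased regions at 5 of 14 genes (35.7%), all at promoters, led by JAK1 (log2 fold 0.91, FDR 0.00699) and the STAT inhibitors PIAS1 (0.87) and PIAS4 (0.78). Other haematopoietic cytokine receptors had 5 of 12 (41.7%), with OSMR, the oncostatin M receptor (1.46, 3' untranslated region, 11.6 and 1.67 reads), LIFR (1.08) and CSF1R (0.89) largest. Interferon-stimulated and nucleic acid sensing genes had 11 of 49 (22.4%). IFI44 (1.30, 3.68 kb upstream) and the RNA sensors IFIH1 (1.05, promoter) and RIGI (1.01, intronic) were highest. BST2, the tether that holds budding virus, had a decreased region 1.88 kb inside its start, with 1.66 reads on knockdown and 8.90 in the control (−0.999, FDR 0.0345). Median log2 folds of the lists' increased regions were 0.97, 0.77, 0.87 and 0.91 in the order given, against 0.97 for all increased regions.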

How the data were processed

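The data were 2 lists of ATAC-seq regions, increased and decreased, from 4 control and 3 PHF19 knockdown libraries. Per the submitters' processing notes, the tools were MACS2 (version 2.2.6), deepTools (1.5.12), Picard (2.2.4) and Bowtie2 (2.4.1), with no role or setting. The sources used here do not state the normalisation, any transposase shift or the tool behind the folds. The authors deposited log2 mean normalised read counts (all libraries and each group) and a log2 fold change. The deposited p-value and FDR are the authors' own. The group columns were told apart by their weight in the overall mean (0.429 for the knockdown, 98.5% of regions within 0.001). The FDR, rank and p-value gave 52675 tested regions and imply 8925 passing, of which 8815 are listed; the others were not analysed here.

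The notes name build hg38, but only 0.228% of 8789 matched regions had a gene start or end equal to GRCh38.p14, so region coordinates are the deposited ones, counted from 1 and taken to be hg19. RefSeq (GRCh38.p14) gave gene types, family sizes and promoter sequences only, and all member regions matched it by gene identifier.

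Counts, medians and shares were computed with scipy 1.17.1, numpy 2.4.6, pandas 2.3.3 and matplotlib 3.10.9 under Python 3.11.15, and the recovery of the number of tests, the motif search and the rule were tested on simulated data. No test over the members was made. The members, lists and motifs were chosen with earlier results of these data known. Genes were named where they had one of the 4 largest absolute folds of a role, a decreased region or at least 3 regions, or were on a fixed list, and in the other lists where among the 3 largest or decreased. The names CCL27, CCL28, IL18BP, IL21R and TNFAIP1 were added after values were seen. Alternatives were a stricter FDR (0.01), an absolute log2 fold of at least 1, at least 10 mean reads, other distance limits, the unshrunken difference of means, and leaving out chromosome 7 or prefix-only and non-coding genes. The values of 1 member gene are not reported here.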

Additional observations from a re-analysis of the deposited data

How the results depend on the processing

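With an FDR of at most 0.01 the family had 34 increased regions, 0 decreased regions and 26 genes with an increased region. With log2 folds of 1 or more in size these were 40, 1 and 27, the 40 being 54.1% of the family's increased regions, against 43.4% of all increased regions. With at least 10 mean reads there were 47 and 1 regions and 34 genes, with 53.2% of increased regions at promoters, against 64.8% over all increased regions with as many reads. Promoter regions alone gave 24 genes. The median log2 fold was 1.37 when taken from the difference of the deposited group means, in which all 44 named genes kept the sign of their largest region. Of those 44 genes, 21 had no region at an FDR of at most 0.01, among them REL, NFKB1, RELB, TNFAIP3, CXCL12 and SOCS3. The family's share of genes was below that of all protein-coding genes under the 8 alternatives in which it was counted, narrowly for folds of that size (10% against 11.3%). Leaving out chromosome 7, which holds no member region, changed no count. No paired analysis was possible because the deposited lists hold group means and no value per library, and for the same reason no library was left out.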

Other observations

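Chromosome 7 held 1042 of the 8615 increased regions and no region of the family. Only 4 family genes (IL6, CCL24, CCL26 and IRF5) lie there, too few for the absence to be read as a trait of the family. Chromosome 3 held 12 of the family's 76 listed regions, 7 of them at IL1RAP, and 879 of all 8815 listed regions. Chromosome 17, with 32 family genes, most of them CC chemokines and others such as STAT3, STAT5A and STAT5B, held 2, the TNFAIP1 promoter and the decreased SOCS3 region. That chromosome held few listed regions of any gene, 185 of the 8815, of which 150 were increased and the rest decreased. The rule reads the deposited symbols, so it passed over IL12B-AS1, listed under an older name, which had 2 increased regions with log2 folds of 1.22 and 0.99 in the authors' deposited table.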
